A study of Homo sapiens with 9 samples.

Results

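Interleukin 15 (IL15), the receptors that share the common gamma chain and the Janus kinases bound to them were followed in the human B-cell line BJAB, an established line labelled as a Burkitt lymphoma tumor. The 10 genes were IL15, IL15RA, IL2RA, IL2RB, IL2RG, IL4R, IL7R, IL21R, JAK1 and JAK3, out of 57500 genes counted. They were chosen by pathway and also selected on their measured RNA: the counts of IL15 and JAK3 in all groups were known when the set was made. For that reason IL15 and JAK3 are described without a test. Polyadenylated RNA was sequenced from 9 libraries of unstimulated cells: 3 of BJAB cells given the short isoform of the receptor TACI (TACI short), 3 of cells given its long isoform (TACI long) and 3 of the parental line (control). The sample titles call the TACI cells stably transfected, the series text calls them transduced, and the promoter that drives the transgene and the number of clones are not given in the sources used here. The labels speak of sorted cells without naming the gate, and they do not say whether the replicates were separate cultures, so p-values measure no more than library-to-library spread, part or all of which may be technical.

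The common gamma chain, encoded by IL2RG, is the signalling subunit shared by the receptors for IL-2, IL-4, IL-7, IL-9, IL-15 and IL-21. It recruits the kinase JAK3, while the partner chains (IL2RB, IL4R, IL7R, IL21R) recruit JAK1, and the activated kinases phosphorylate STAT transcription factors. IL-15 is unusual in that a producing cell binds it to IL15RA and presents it to neighbours that carry IL2RB and the gamma chain. In B cells, IL-4 and IL-21 act during germinal centre and plasma cell responses.

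Each library had between 40322136 and 50079203 counts, and 3 counts correspond to 0.0599 to 0.0744 CPM, the usual scaling of counts by the column total, depending on the library. TNFRSF13B, the gene of TACI, stood at 2960, 2970 and 2650 CPM in TACI short, at 691, 704 and 738 CPM in TACI long and at 28.8, 15.2 and 14.6 CPM in control. Gene counts cannot separate the isoforms, so isoform and transgene level differ together. The summed level of 6 B-cell markers was 6010 to 6310 CPM in TACI short, 5070 to 5160 in TACI long and 5110 to 5390 in control. TACI short replicates 2 and 3 stood apart: 32882 and 32209 genes had a count there, against 24307 to 25938 in the other libraries. Their 8 myeloid markers summed to 135 and 128 CPM, against 35.1 in TACI short replicate 1. The sum was 23.2 to 37.5 CPM in TACI long and 17 to 26.9 in control, and each of the 8 had a count in every library. In TACI short replicate 2 the sum came mostly from CSF1R (57.8 CPM), FCER1G (26.4), ITGAM (23.4) and TYROBP (12.4). CD33 stood at 10.3 CPM there, LYZ at 2.16, CD14 at 1.61 and CD68 at 0.397. In TACI short replicate 1 CSF1R stood at 20.3 CPM, ITGAM at 3.44, FCER1G at 2.43 and TYROBP at 0.968. The 6 T- and NK-cell markers summed to 2.98 to 3.94 CPM in TACI short and 2.91 to 3.07 in TACI long. In control the sum was 3.09 to 3.2 CPM. Most of it was CD3E and NKG7, which had a count in all 9 libraries. CD3D and CD2 were at 0 in 8 of the 9 libraries, CD8A in 7 and GNLY in 1. The 6 epithelial and fibroblast markers summed to 80.7 to 89 CPM in TACI short, 113 to 120 in TACI long and 98 to 100 in control, most of it EPCAM. The fibroblast collagen gene COL1A1 alone stood at 3.24, 11 and 10.2 CPM in TACI short, 2.55, 2.35 and 1.53 in TACI long and 1.5, 2.11 and 2.61 in control. COL1A2 was uneven in the same way, at 0.653, 3.99 and 4.11 CPM in TACI short, 0.993, 0.921 and 0.51 in TACI long and 0.913, 1.13 and 1.44 in control. In bulk RNA, fewer cells expressing a gene and less of it per cell cannot be told apart.

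JAK3 had the widest range of the kinases, and the stretch before its start, planned for display, is shown. It holds the single match to 1 strict form of the NF-kB motif in the promoter windows found for members. Promoter windows (RefSeq, GRCh38.p14; 250 bases before to 50 after each start, 300 bases in all) were found for 8 of the 10 members, as 13 windows. IL15 and IL2RB had no window and were not searched. The motif, GGGA and TTTCC with any 1 base between them, was searched on both strands. It had 1 match in these windows, at 30 bases before the start of JAK3, and 0.558% of all 35116 windows held it. Looser forms of the NF-kB motif were not searched, so other members may hold such sites. The STAT motif TTCNNNGAA, which reads the same on both strands, had 1 match, at 127 bases before a start of IL15RA, and 7.66% of all windows held it. The interferon-type motif, GAAA and GAAA with any 2 bases between them, had no match on either strand in these 13 windows. It occurred in 3.57% of all windows. These searched motifs do not overlap each other in the members. The 250 bases before each of these starts, minus strand, on chr19:17847983-17848232 (JAK3) and chr10:5978047-5978296 (IL15RA, shown after its match was seen), have the matched motif in capitals.
JAK3: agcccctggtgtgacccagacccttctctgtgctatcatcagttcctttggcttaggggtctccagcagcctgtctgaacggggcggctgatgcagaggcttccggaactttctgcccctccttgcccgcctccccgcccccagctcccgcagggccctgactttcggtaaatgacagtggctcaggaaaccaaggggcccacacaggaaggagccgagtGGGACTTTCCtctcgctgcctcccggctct
IL15RA: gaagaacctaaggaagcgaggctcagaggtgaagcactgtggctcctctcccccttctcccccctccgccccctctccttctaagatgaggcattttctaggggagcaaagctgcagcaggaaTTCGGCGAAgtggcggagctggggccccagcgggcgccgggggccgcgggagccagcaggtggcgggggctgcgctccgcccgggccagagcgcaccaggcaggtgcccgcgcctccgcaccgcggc

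Levels per length (TPM, in which counts are divided by the exon length in the files and scaled to a common total) put 3 genes far above the others in each group. In TACI short, IL21R stood at 101 ± 5.23 TPM, JAK1 at 99.8 ± 3.92 and IL4R at 70.8 ± 1.14 (SD, n = 3). The TACI long levels were 71.3 ± 3.05 TPM for JAK1, 48.8 ± 2.99 for IL4R and 28.2 ± 1.02 for IL21R. In control they were 94.9 ± 2.08 TPM for IL21R, 83.5 ± 3.22 for JAK1 and 52 ± 0.774 for IL4R. IL21R thus ranked above JAK1 and IL4R in control and below both in TACI long, while IL21R and JAK1 in TACI short lay within 1 SD of each other. JAK3 and IL15 came next in TACI short, at 9.05 ± 1.7 and 6.78 ± 0.458 TPM. All other levels in TACI short, and all levels of IL15, IL15RA, IL2RA, IL2RB, IL2RG, IL7R and JAK3 in TACI long and control, had means of 0.839 TPM or less. Among these 7 genes in TACI long, IL2RG was highest at 0.15 ± 0.0184 TPM and JAK3 at 0.0225 ± 0.0221 TPM. In control IL2RB led the same 7 genes with 0.724 ± 0.116 TPM, followed by JAK3 at 0.585 ± 0.0746 TPM, and these lay within about their joint spread.

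**Figure D1:**
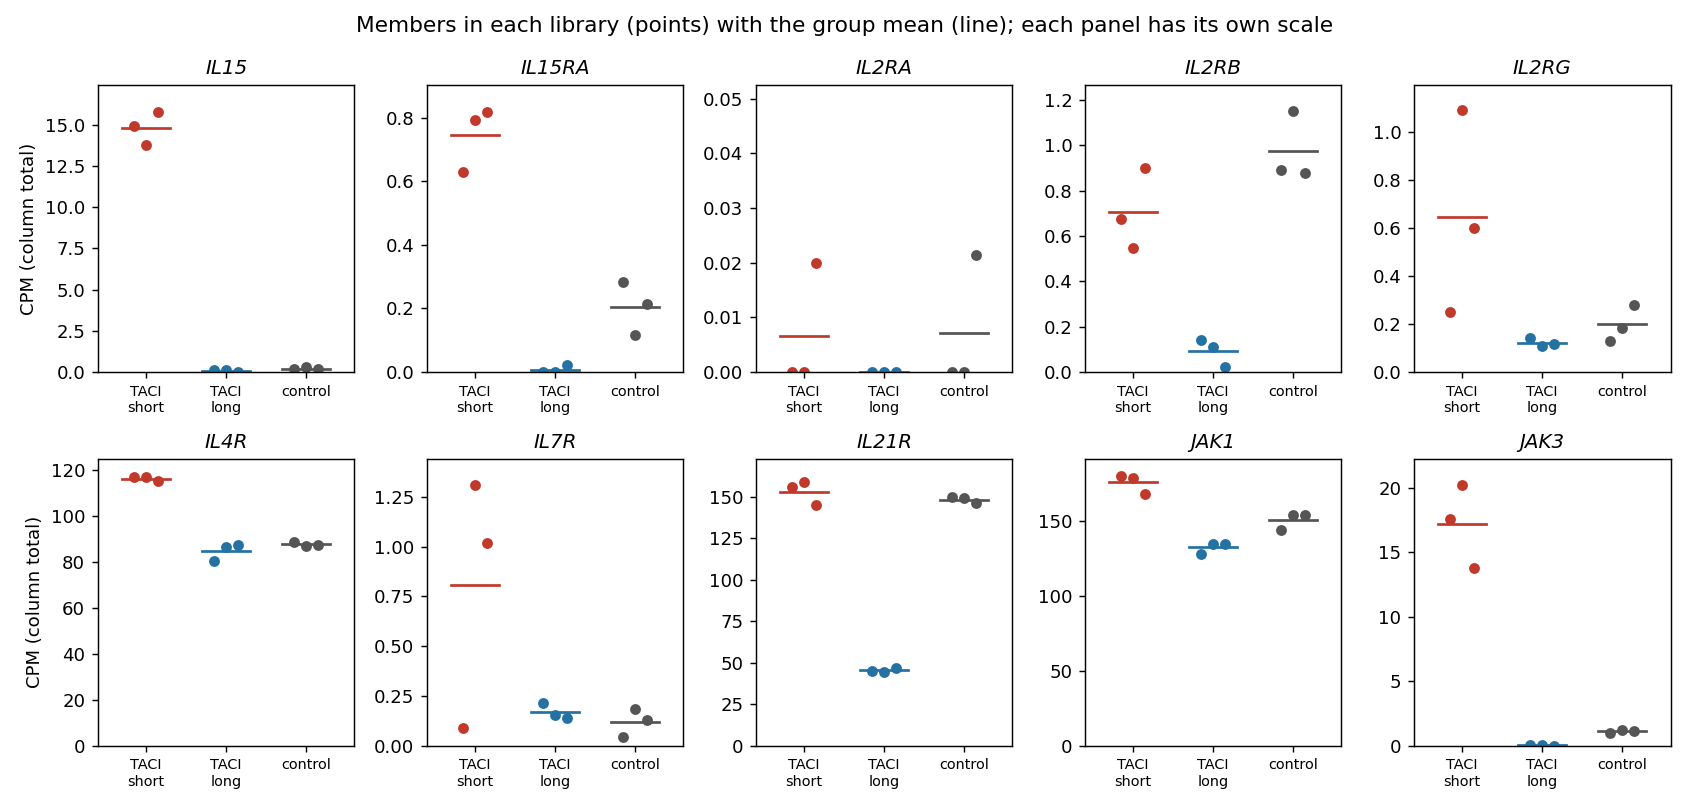
Level of each member in CPM over the column total, with 1 point per library and a line at the mean of the 3 libraries of TACI short, TACI long and control; each panel has its own scale from 0. IL15 and JAK3 stand high in all 3 TACI short libraries, IL21R is low in all 3 TACI long libraries, IL7R is high in 2 TACI short libraries, and IL2RA never exceeds 1 count.

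The ligand IL15 (ENSG00000164136; hg38 chromosome 4, 141636599 to 141733987, plus strand), a growth and survival factor of NK and memory T cells, was nearly silent outside TACI short. TACI short libraries held 663, 555 and 793 counts (14.9, 13.8 and 15.8 CPM), TACI long libraries 4, 5 and 1 counts (0.0945, 0.11 and 0.0232 CPM) and control libraries 9, 12 and 8 counts (0.196, 0.276 and 0.171 CPM). All TACI short libraries lay above every control, and all TACI long libraries lay below every control. Summed counts relative to depth were 70.1-fold higher in TACI short than in control (exact 95% interval 48.6 to 105), from 2011 against 29 counts. In TACI long they were 2.79-fold lower than in control (1.32 to 6.42), from 10 against 29 counts. TACI short over TACI long gave a ratio of 195 (106 to 408). These intervals cover counting error only. TACI short replicate 1, the library of that group with few myeloid transcripts, lay between replicates 2 and 3 in IL15.

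The genes whose profile over the 9 libraries was nearest to that of IL15 were CD70, NMUR2, CAPN6, MMRN1 and CREB3L1. Nearness is the root mean square difference of centred log2 CPM, which was 0.48 for CD70 and 0.56 to 0.63 for the other 4. CD70, the TNF-family ligand of CD27, averaged 102 CPM in TACI short, 1.09 in TACI long and 3 in control.

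IL15RA (ENSG00000134470) lies on chromosome 10 from 5943639 to 5978187, minus strand. This high-affinity chain, which holds IL-15 on the cell surface, had 28, 32 and 41 counts in TACI short (0.63, 0.794 and 0.819 CPM). It had 0, 0 and 1 counts in TACI long and 13, 5 and 10 counts in control (0.283, 0.115 and 0.214 CPM). The 3 groups did not overlap, with TACI short on top and TACI long at the bottom. IL15RA passed the filter on low counts only through TACI short, so p-values for that group are given from the fit with no filter, over 41009 genes. Its log2 fold change was 1.72 ± 0.38 (SE) in TACI short against control, and 1.71 with no filter (edgeR quasi-likelihood test, Benjamini-Hochberg adjusted p = 7.06e-05). In TACI long against control the summed counts were 26.9-fold lower, with a counting interval of 4.45 to 1100, from 1 against 28 counts. The log2 fold change there was -4.32 with no filter (edgeR adjusted p = 4.61e-07). The filtered fit, which IL15RA entered only through TACI short, gave -4.33 (edgeR adjusted p = 6.35e-05). That value went to -6.28 without TACI long replicate 3, which holds the 1 count. TACI short over TACI long gave a ratio of 98.2 with a counting interval of 17.2 to 3920. The log2 fold change there was 6.03 with no filter (edgeR adjusted p = 7.8e-19). In the filtered fit it was 6.05 (edgeR adjusted p = 1.8e-08), and 7.98 without TACI long replicate 3. A gene that shares 4.16% of the IL15RA exon length on the same strand had 1 to 8 counts in each library, so some IL15RA counts could belong to it.

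IL2RB (ENSG00000100385; chromosome 22, 37125838 to 37175054, minus strand), the beta chain that IL-2 and IL-15 receptors share, was low in the line and lower still with the long isoform. It had 30, 22 and 45 counts in TACI short (0.675, 0.546 and 0.899 CPM), 6, 5 and 1 counts in TACI long (0.142, 0.11 and 0.0232 CPM) and 41, 50 and 41 counts in control (0.891, 1.15 and 0.879 CPM). The TACI long libraries lay below all others, while TACI short and control overlapped. IL2RB fell by 3.37 ± 0.40 (SE) on the log2 scale in TACI long against control, with 12 against 132 counts (edgeR adjusted p = 1.55e-07). It was 2.79 ± 0.41 higher in TACI short than in TACI long (edgeR adjusted p = 1.86e-06). TACI short against control gave -0.58 ± 0.30, with an approximate 95% interval of -1.31 to 0.16 (edgeR adjusted p = 0.0986). IL2RA, the alpha chain of the IL-2 receptor and an activation marker of T cells, had 1 count in 1 TACI short library, none in TACI long and 1 in 1 control library. It was not detectable above the floor of 3 counts in any library and did not enter the test.

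The common gamma chain gene IL2RG and the IL-7 receptor gene IL7R, which marks T cells and early lymphoid cells, were low and uneven in TACI short. IL2RG (ENSG00000147168) lies on the minus strand of chromosome X from 71107404 to 71112108, and IL7R on the plus strand of chromosome 5 from 35852695 to 35879603. IL2RG had 11, 44 and 30 counts in TACI short (0.248, 1.09 and 0.599 CPM), 6, 5 and 5 counts in TACI long (0.142, 0.11 and 0.116 CPM) and 6, 8 and 13 counts in control (0.13, 0.184 and 0.279 CPM). TACI short replicates 2 and 3 lay above all other libraries, and replicate 1 lay within the control range. The log2 fold change of IL2RG in TACI short against control was 1.54 ± 0.44 (SE). IL2RG also passed the filter only through TACI short, and the fit with no filter gave 1.52 (edgeR adjusted p = 0.000702). The filtered fit over all libraries had edgeR adjusted p = 0.00472. In that fit the log2 fold change was 1.00 without TACI short replicate 2 (edgeR adjusted p = 0.0841). It was 0.23 without TACI short replicates 2 and 3. TACI short against TACI long gave 2.22 ± 0.48 in the filtered fit (edgeR adjusted p = 0.000322) and 2.19 with no filter (edgeR adjusted p = 1.9e-06). In the filtered fit it was 0.90 without those 2 libraries. Without both, TACI short is 1 library, which is assumed to vary like the other groups. In TACI long against control it was -0.68 ± 0.55, with an approximate 95% interval of -2.03 to 0.67 (edgeR adjusted p = 0.33).

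IL7R had 4, 53 and 51 counts in TACI short (0.09, 1.31 and 1.02 CPM), 9, 7 and 6 counts in TACI long (0.213, 0.154 and 0.139 CPM) and 2, 8 and 6 counts in control (0.0435, 0.184 and 0.129 CPM). The same 2 TACI short libraries stood above all others, and replicate 1 lay inside the control range. IL7R did not pass the filter on low counts and has no test. The libraries in which IL2RG and IL7R were high are those with 135 and 128 CPM of myeloid markers, against 35.1 CPM in replicate 1, and with the higher COL1A1 and COL1A2. The part of that RNA in these 2 genes was not tested.

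**Figure D2:**
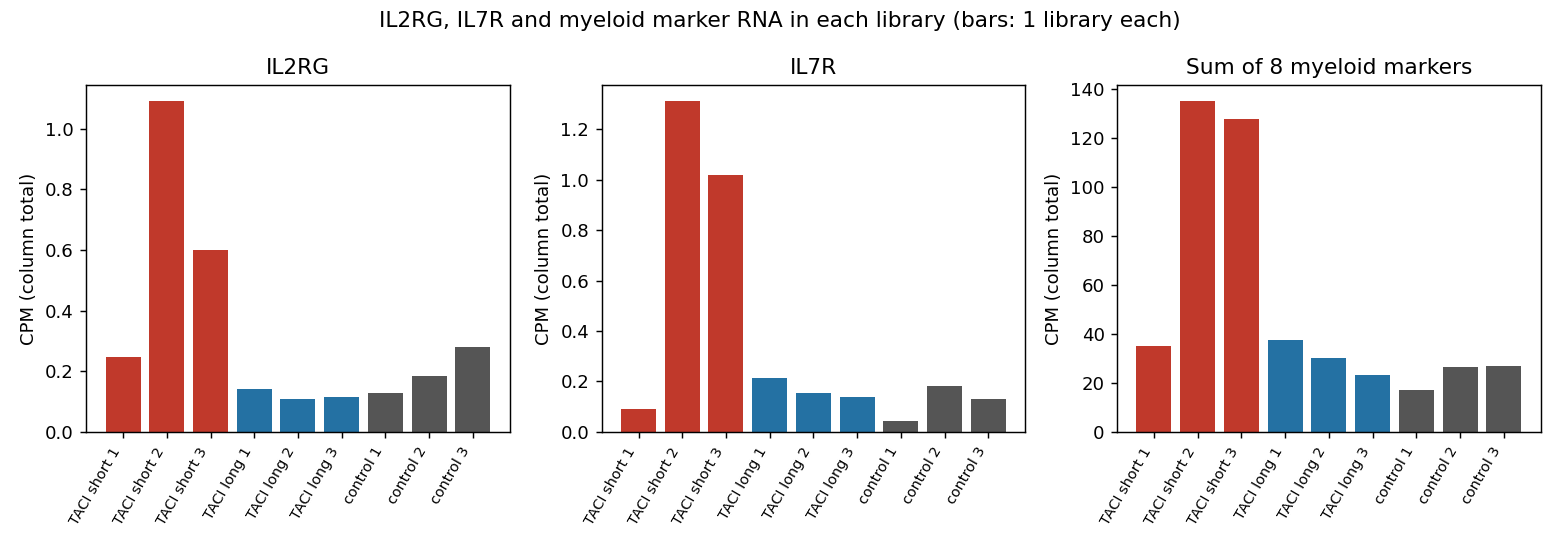
CPM over the column total of IL2RG, IL7R and the sum of 8 myeloid markers, with 1 bar for each of the 9 libraries (TACI short, TACI long, control). In all 3 panels TACI short replicates 2 and 3 have the tallest bars, and TACI short replicate 1 is below them.

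IL4R and IL21R, the specific chains of the IL-4 and IL-21 receptors, are neighbours on chromosome 16 (hg38, plus strand), 37383 bases apart with no annotated gene between them in the files. They were the abundant receptor genes of the line, and they differed in how they varied. IL21R, at positions 27402162 to 27452042, stood at 156, 159 and 145 CPM in TACI short, at 44.8, 44.6 and 47 CPM in TACI long and at 150, 149 and 146 CPM in control. Every TACI long library lay far below the other 6, which overlapped. IL21R fell by 1.71 ± 0.05 (SE) on the log2 scale in TACI long against control, a 3.26-fold difference (edgeR adjusted p = 7.25e-19). It was 1.62 ± 0.05 higher in TACI short than in TACI long (edgeR adjusted p = 8.26e-19). In TACI short against control it was -0.08 ± 0.04, with an approximate 95% interval of -0.19 to 0.03 (edgeR adjusted p = 0.112), and it passed the threshold at -0.12 without TACI short replicate 1 (edgeR adjusted p = 0.0168). The antisense gene IL21R-AS1 shares 23.3% of the IL21R exon length, but had at most 40 counts in a library, against 1894 to 7267 for IL21R. The Nextera XT kit does not keep the strand.

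IL4R, at positions 27313668 to 27364778, stood at 117, 117 and 115 CPM in TACI short, at 80.1, 86.5 and 87.4 CPM in TACI long and at 88.7, 87 and 87.2 CPM in control. TACI short lay above the other groups, which overlapped. Its log2 fold change was 0.28 ± 0.04 (SE) in TACI short against control (edgeR adjusted p = 7.85e-06) and 0.33 ± 0.04 in TACI short against TACI long (edgeR adjusted p = 6.5e-07). In TACI long against control it was -0.05 ± 0.04, with an approximate 95% interval of -0.16 to 0.06 (edgeR adjusted p = 0.395). IL15RA and IL2RA are neighbours as well, 32501 bases apart on chromosome 10, and the levels of both are given above.

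JAK3, the kinase that binds the gamma chain (chromosome 19, 17824780 to 17848071, minus strand; ENSG00000105639), was above control in TACI short and below it in TACI long. It had 780, 813 and 692 counts in TACI short (17.6, 20.2 and 13.8 CPM), 2, 4 and 0 counts in TACI long (0.0473, 0.0877 and 0 CPM) and 45, 55 and 55 counts in control (0.978, 1.26 and 1.18 CPM). The groups did not overlap. Relative to depth, the summed counts were 14.9-fold higher in TACI short than in control (exact 95% interval 12.7 to 17.6), from 2285 against 155 counts. They were 24.9-fold lower in TACI long than in control (11.2 to 68.8), from 6 against 155 counts. TACI short over TACI long gave a ratio of 370 (170 to 1010). The intervals for JAK3 cover counting error only, and its level ran from 13.8 to 20.2 CPM within TACI short. The fitted log2 fold change of JAK3 in TACI long against control was -4.56. It went to -5.43 without TACI long replicate 2, the library with 4 counts. TACI short against TACI long had 8.34, and 9.21 without that library.

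The profiles nearest to that of JAK3 over the 9 libraries were those of CCR7, ABCA8, PPFIA4, CD70 and CCL22, at root mean square differences of 0.65, 0.93, 0.97, 1.06 and 1.07 in centred log2 CPM. CCR7, the chemokine receptor that guides lymphocytes to lymph nodes, averaged 29.2 CPM in TACI short, 0.332 in TACI long and 3.17 in control.

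JAK1 (ENSG00000162434; chromosome 1, 64833229 to 64966504, minus strand), the kinase of the partner chains, varied much less than JAK3. It stood at 180, 179 and 168 CPM in TACI short, at 128, 135 and 135 CPM in TACI long and at 144, 154 and 154 CPM in control. The 3 groups did not overlap on this scale. JAK1 fell by 0.18 ± 0.04 (SE) on the log2 scale in TACI long against control (edgeR adjusted p = 0.00126) and was 0.27 ± 0.04 higher in TACI short than in TACI long (edgeR adjusted p = 7.6e-06). In TACI short against control it was 0.09 ± 0.04, with an approximate 95% interval of -0.02 to 0.20 (edgeR adjusted p = 0.0742). That value depended on scaling: with column totals alone it was 0.22 (edgeR adjusted p = 8.86e-05), where the median of all genes was also 0.13 higher than with TMM factors, and with upper-quartile factors it was 0.17 (edgeR adjusted p = 0.000366). It passed the threshold at 0.11 without TACI short replicate 2 (edgeR adjusted p = 0.0456), at 0.12 without replicate 3 (edgeR adjusted p = 0.0291) and at 0.16 without both (edgeR adjusted p = 0.00522), where the 1 library left is assumed to vary like the other groups.

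**Figure D3:**
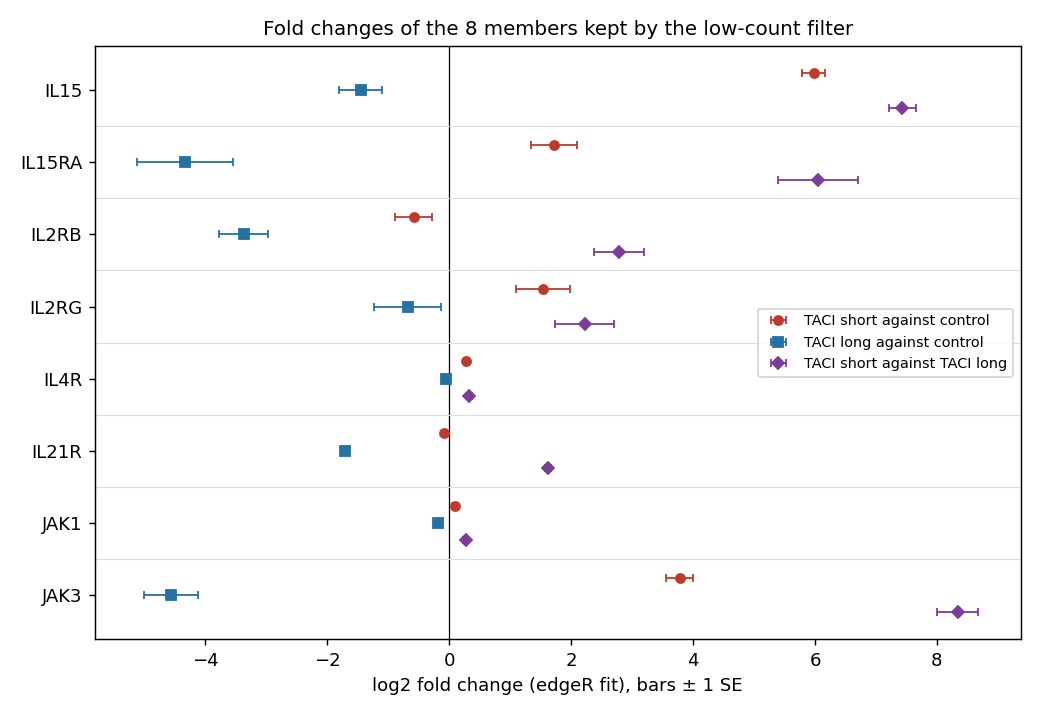
Fitted log2 fold change of the 8 members kept by the filter, with bars of 1 SE, for TACI short against control, TACI long against control and TACI short against TACI long. IL15 and JAK3 are drawn as a description without a test. IL15, IL15RA and JAK3 lie on opposite sides of 0 in the comparisons with control, and IL2RB and IL21R lie at -3.37 and -1.71 for TACI long against control, beside -0.58 and -0.08 for TACI short against control.

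Of the 10 members, 8 passed the filter. IL15, IL15RA and IL2RG reached the minimum level in 3 libraries only through TACI short, where they are high, and IL2RA and IL7R did not pass. JAK3 is left out because its counts were known when the set was made. Calls are therefore counted over the 4 other members that pass without TACI short: IL2RB, IL4R, IL21R and JAK1. These 4 were also chosen with earlier results of these data known. In TACI short against control, 1 of the 4 was called higher (IL4R) and none lower, where 62.6% of 16672 tested genes were called, 31.5% higher and 31.1% lower. With column totals in place of TMM factors, 6862 genes were called higher and 3779 lower in that comparison, beside 5256 and 5179, and JAK1 was called higher too. In TACI long against control, none of the 4 was called higher and 3 were called lower (IL2RB, IL21R and JAK1), where 51.1% of genes were called, 25.2% higher and 25.9% lower. All 4 were called higher in TACI short against TACI long, where 68.8% of genes were called, 35.2% higher and 33.6% lower. Column totals gave 7214 higher and 4359 lower there, beside 5870 and 5604. The median log2 fold change of the 4 was 0.01, -0.94 and 0.98 in these comparisons, beside 0.03, 0 and 0.05 for all genes. Since the members were chosen with these data in view and the first 2 comparisons share the control libraries, the counts describe the set and support nothing further.

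Other genes of the pathway came from a separate list of 32 ligands, receptors, kinases, STATs, inhibitors, adaptors and targets, of which 22 passed the filter. Of the 22, 13 rose and 2 fell in TACI short against control, where 31.5% of all tested genes were called higher and 31.1% lower. Their median log2 fold change was 0.47. In TACI long against control 4 rose and 10 fell, beside 25.2% and 25.9% of all genes, with a median of -0.22. Between the lines, 15 were higher and 1 lower in TACI short than in TACI long, beside 35.2% and 33.6%. The median there was 0.84. An inhibitor gene among the 22 passed the filter only through TACI short. It is counted as higher in TACI short against control and against TACI long.

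Of the 7 other ligands only TSLP, a cytokine that signals through IL7R and its own chain, passed the filter. It had 69, 70 and 60 counts in TACI short, 9, 10 and 5 in TACI long and 19, 27 and 31 in control, and the groups did not overlap. TSLP rose by 1.27 ± 0.26 (SE) on the log2 scale in TACI short (edgeR adjusted p = 0.000223) and fell by 1.61 ± 0.32 in TACI long (edgeR adjusted p = 0.000205), each against control. IL2, IL21 and the other gamma chain cytokines had few counts or none, with 11 for IL7 in 1 TACI short library as the highest. The receptor gene IL13RA1, which pairs with IL4R, had 12, 138 and 181 counts in TACI short, 24, 27 and 15 in TACI long and 8, 24 and 25 in control, so that it was high in the same 2 TACI short libraries as IL7R (edgeR adjusted p = 0.0627 against control). The adaptor gene IRS2 was high in the same 2 libraries, with 21, 207 and 247 counts in TACI short, 44, 42 and 29 in TACI long and 22, 38 and 33 in control.

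Among the kinases, JAK2 rose by 1.12 ± 0.12 (SE) on the log2 scale in TACI short against control (edgeR adjusted p = 3.79e-08), and TYK2 changed by 0.28 ± 0.05 in TACI short (edgeR adjusted p = 1.33e-05) and by -0.23 ± 0.05 in TACI long (edgeR adjusted p = 0.000191). Among the STAT genes, STAT3 and STAT5A rose in TACI short, and STAT3, STAT5B and STAT6 fell in TACI long, each against control. The rise of STAT3 in TACI short, 0.14 ± 0.04, was lost when control replicate 1, 2 or 3 was left out (edgeR adjusted p = 0.0522, 0.0539 and 0.0853). STAT5A, which signals below IL-2, IL-7 and IL-15, stood at 40.3, 40 and 39.5 CPM in TACI short, at 20.5, 21.3 and 20.8 CPM in TACI long and at 19.8, 19.6 and 20 CPM in control. TACI short lay above both other groups, a rise of 0.88 ± 0.05 over control on the log2 scale (edgeR adjusted p = 3.35e-13). Its near-twin STAT5B showed the other pattern, at 174, 170 and 166 CPM in TACI short, 87.4, 96.7 and 89.3 CPM in TACI long and 156, 162 and 164 CPM in control. STAT5B fell by 0.82 ± 0.05 in TACI long against control (edgeR adjusted p = 5.25e-13), STAT3, used by IL-21, by 0.73 ± 0.04 and STAT6, used by IL-4, by 0.46 ± 0.04. STAT5A and STAT5B are close in sequence, so reads may be shared between them.

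SOCS1, an inhibitor that STATs induce, rose in both lines, by 1.33 ± 0.07 (SE) in TACI short and 0.32 ± 0.08 in TACI long on the log2 scale (edgeR adjusted p = 3.28e-13 and edgeR adjusted p = 0.000975). Of the 4 adaptors, 1 rose and 1 fell in TACI short, beside 31.5% of all genes called higher and 31.1% lower. In TACI long 2 adaptors fell (IRS1 and SHC1) and none rose, beside 25.9% and 25.2% of all genes. GAB2, an adaptor of cytokine receptors, had 93, 157 and 207 counts in TACI short, 46, 26 and 31 in TACI long and 46, 44 and 46 in control, with TACI short above both other groups. It rose by 1.62 ± 0.25 in TACI short against control (edgeR adjusted p = 2.85e-05). IRS1 fell in both lines, by 1.35 ± 0.06 in TACI short and 1.20 ± 0.06 in TACI long (edgeR adjusted p = 4.04e-15 and edgeR adjusted p = 4.04e-14). Of the 6 targets, 4 rose and 1 fell in TACI short, where 31.5% of all genes were called higher and 31.1% lower. In TACI long 3 rose and 3 fell, where the shares were 25.2% and 25.9%. The survival gene BCL2 stood at 12.3, 14.6 and 13.6 CPM in TACI short, at 3.33, 3.09 and 2.6 CPM in TACI long and at 4.24, 3.83 and 3.19 CPM in control. It rose by 1.72 ± 0.11 on the log2 scale in TACI short (edgeR adjusted p = 4.06e-12). In TACI long it was called at -0.32 (edgeR adjusted p = 0.0253), a call that was lost when control replicate 1, control replicate 2 or TACI long replicate 3 was omitted (edgeR adjusted p = 0.174, 0.058 and 0.16). It was also lost with DESeq2 (adjusted p = 0.0801) and limma-voom (adjusted p = 0.0641). PIM1, a survival kinase induced by STAT5, rose by 1.08 ± 0.05 in TACI short and 0.20 ± 0.05 in TACI long (edgeR adjusted p = 2.02e-14 and edgeR adjusted p = 0.00325).

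**Figure D4:**
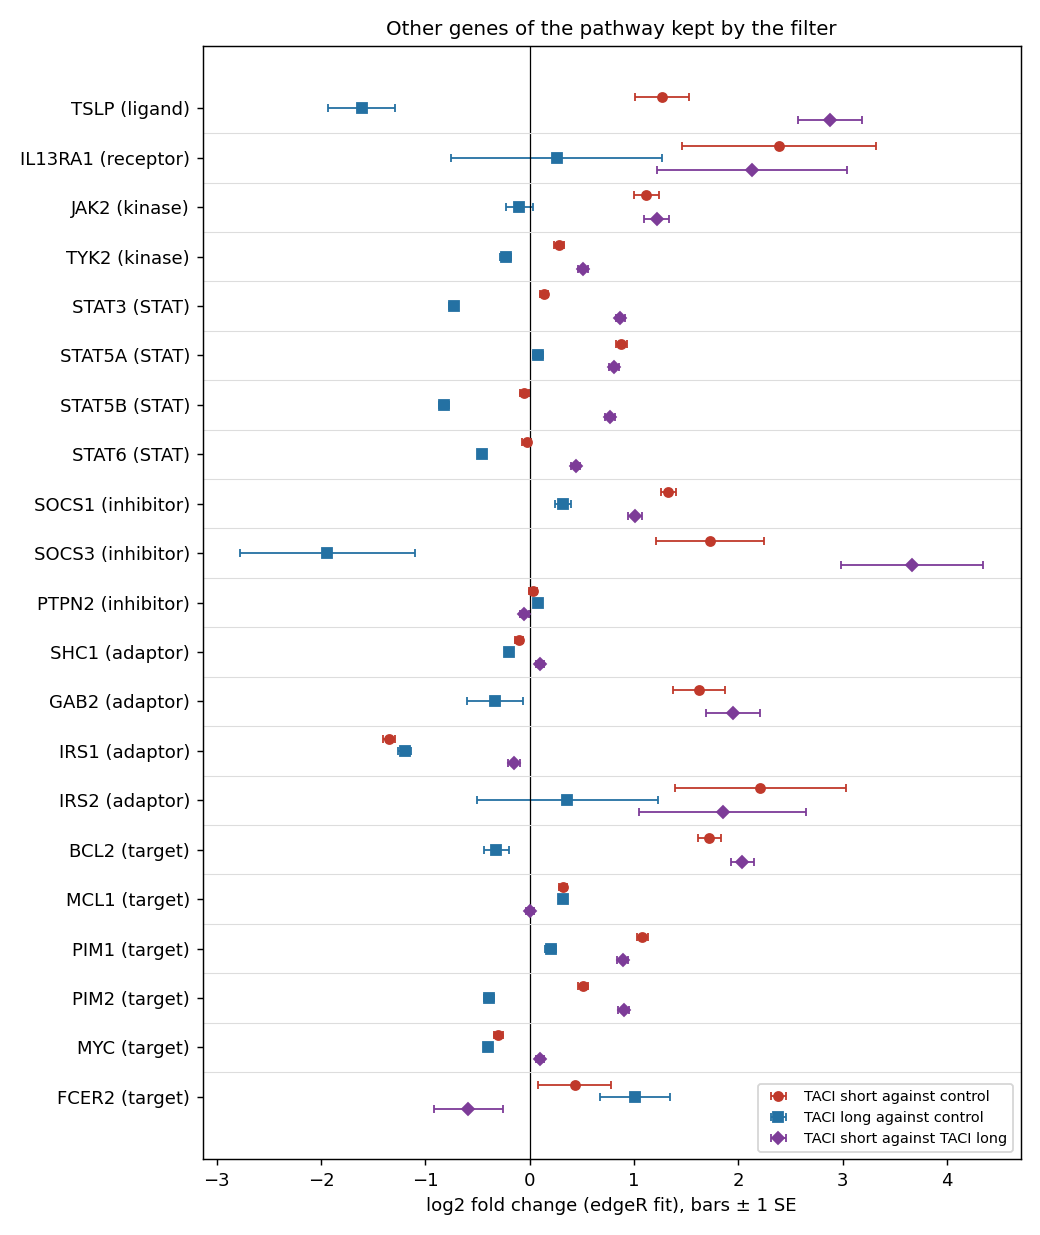
Fitted log2 fold change with bars of 1 SE for 21 other pathway genes kept by the filter, with the role of each in brackets, for TACI short against control, TACI long against control and TACI short against TACI long. STAT5A, JAK2, SOCS1, BCL2 and PIM1 lie to the right for TACI short, STAT3, STAT5B and STAT6 lie to the left for TACI long, and IRS1 lies to the left for both.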

How the data were processed

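For each of the 9 libraries the authors deposited raw read counts per Ensembl gene. FastQC, STAR 2.4.0h and HTSeq, with hg38 as the build, are listed per the submitters' processing notes, although the deposited tables have the column layout of featureCounts. The annotation release, strand setting and filters are not given in the sources used here. Per the labels, RNA was extracted with RNeasy Plus Micro and libraries were prepared with Nextera XT.

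IDs were paired with symbols by Ensembl ID (56410 of 57500 matched). CPM are counts over the column total, and TPM also divide by exon length. The 16672 genes kept by filterByExpr (minimum count 10, minimum total 15) were scaled with TMM factors. One model over the 3 groups was fitted in edgeR 4.0.16 (R 4.3.3), using robust quasi-likelihood F tests. Calls are at a Benjamini-Hochberg adjusted p under 0.05 over all tested genes. The SE is the absolute log2 fold change over the square root of F, and the 95% intervals made from it are approximate. The procedure was tested on simulated counts. Ratios of summed counts have exact Clopper-Pearson 95% intervals. Replicates differed by a chi-square of 2.45 to 18.2 per degree of freedom, more than sampling noise, so each was counted once. Same-numbered TACI short and control libraries deviated together (correlations 0.177 to 0.434), from the data and not from the labels.

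The members and lists were chosen with earlier results of these data known. All members are named. Other pathway genes were named by adjusted p within a role, up to 4 per comparison, and IL13RA1, IRS2 and IL7 were named after their values were seen. The 5 nearest profiles are given for IL15 and JAK3. Alternatives covered scaling (size factors of DESeq2, upper quartile, column totals), tools (DESeq2 1.42.0, limma-voom with limma 3.58.1), filters, the 2 groups alone, a replicate block and libraries left out. One pathway gene is counted in the list but not reported here. Figures were drawn with matplotlib 3.10.9.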

Additional observations from a re-analysis of the deposited data

Results flagged for a closer look

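In CPM over the column total, 4 members had every TACI short library above every control and every TACI long library below every control. For these the difference between the lines is given itself. The 4 were picked by that order, and the share of all genes with it was not counted. In the fit with TMM factors JAK1 was not called in TACI short against control (0.09, edgeR adjusted p = 0.0742). For IL15RA, which had 1 count in TACI long, the log2 fold change of TACI short against TACI long was 6.05 (edgeR adjusted p = 1.8e-08). In the fit with no filter it was 6.03 (edgeR adjusted p = 7.8e-19). The log2 fold change between the lines was 0.27 for JAK1 (edgeR adjusted p = 7.6e-06). It was 7.43 for IL15 and 8.34 for JAK3, given as a description with no test, because these genes were chosen with their counts known. Groups of 3 libraries are too small for the search for outlying samples.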

How the results depend on the processing

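Of 171 alternative counts of called genes, members or pathway genes, 1 moved by over 1.5 times. Counts of members here run over all members kept by the filter, IL15 and JAK3 included, and are a description of the set. They also include IL15RA and IL2RG, which passed the main filter only through TACI short. With at least 1 CPM in 3 libraries, 5 members were called in TACI short against TACI long instead of 8, since 5 members were then tested. In that setting 77.9% of all tested genes were called, beside 68.8% in the main fit. With 1 library left out at a time, 8 or 9 members were tested. In TACI short against control 5 to 7 were called, beside 55.1 to 66.5% of all tested genes. In TACI long against control 5 to 6 were called, beside 41.4 to 52.5%. In TACI short against TACI long 8 to 9 were called, beside 61.1 to 72.7%. Leaving out TACI short replicates 2 and 3 together leaves 1 library in that group, so no count is given for it.

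With the replicate number as a replicate block, 5, 6 and 8 of the 8 members tested were called in those comparisons. These 8 include IL15 and JAK3, chosen with their counts known, and IL15RA and IL2RG, which passed the filter only through TACI short. Their counts describe the set only. Of all 16672 genes, 10501, 8620 and 11495 were called (63%, 51.7% and 68.9%), and no call of a member changed. Correlations of deviations between same-numbered libraries ran from -0.272 to 0.434, and 4 of 9 were above 0.1, so the numbers do not pair the 3 groups. In TACI short and control all were above 0.1, but control replicate 3 correlated better with TACI short replicate 2 (0.232) than with replicate 3 (0.177).

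Directions turned in small or uneven log2 fold changes, and the cause was not tested. In TACI short against control, upper-quartile factors gave 0 for IL21R, 0.04 for STAT5B and 0.06 for STAT6. Column totals gave 0.05, 0.08 and 0.1 for the same genes and 0.03 for SHC1. In TACI short against TACI long, upper-quartile factors gave 0.04 for PTPN2 and 0.09 for MCL1, and column totals gave 0.08 and 0.13. With at least 1 CPM in 3 libraries, STAT6 in TACI short against control was 0.01 and MCL1 in TACI short against TACI long was 0.04, while MCL1 with the 2 groups alone was 0. Without TACI short replicates 2 and 3, the values in TACI short against control were -0.72 for IL13RA1, -0.62 for IRS2, -0.86 for FCER2, 0.03 for STAT5B and 0.02 for STAT6. IL13RA1 and IRS2 were both -0.99 in TACI short against TACI long there. With 1 library left out, IL13RA1 in TACI long against control ran from -0.1 to 0.49, PTPN2 in TACI short against control from -0.01 to 0.07 and MCL1 in TACI short against TACI long from -0.03 to 0. Counts of 0 to 13 in TACI long or control limit the precision of IL15, IL15RA, IL2RG and IL7R, and of JAK3 in TACI long.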
